A study of Mus musculus with 120 samples.

Results

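The nuclear genes that encode complexes I to IV of the mitochondrial respiratory chain were followed in the livers of 60 mice of an F2 cross between C57BL/6J and BTBR, each mouse homozygous for the leptin mutation ob. The members were all probe sets whose single gene symbol starts with Nduf, Uqcr or Cox4 to Cox8, or is Sdha, Sdhb, Sdhc or Sdhd. A probe set is the group of short probes on an Affymetrix array that measures 1 transcript, and several probe sets can measure 1 gene. Of 45037 probe sets the rule found 128 of the 22626 on the MOE430A array (67 genes) and 20 of the 22411 on the MOE430B array (16 genes), for 73 genes in all, of which 10 had members on both array types. A further 8 probe sets of MOE430A and 2 of MOE430B that name several genes, among them one of the respiratory chain, were left out. On MOE430A, 68 members belonged to complex I (34 genes), 6 to assembly factors of complex I (5 genes), 7 to complex II (4 genes), 15 to complex III (8 genes) and 32 to complex IV (16 genes). The subunits encoded by the mitochondrial genome, Cyc1 of complex III and ATP synthase fall outside the rule.

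All 60 mice were obese F2-ob/ob animals, 31 females and 29 males, killed at 14 weeks of age after a 4-h fast, so no lean mouse and no founder strain served as a control. Each liver was hybridized to 1 MOE430A and 1 MOE430B array, giving 120 arrays. Groups were set by genotype, written A and B for the 2 homozygotes and H for the heterozygote, as in the deposited genotype table. The sources used here do not say which founder strain a letter stands for. Every mouse differs from every other at the rest of the genome, so the mice of a genotype group share 1 locus and not a strain, and a liver sample holds several cell types.

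The respiratory chain passes electrons from NADH, through complex I, and from succinate, through complex II, to ubiquinone, on to cytochrome c through complex III and to oxygen through complex IV. Complexes I, III and IV pump protons out of the mitochondrial matrix, and ATP synthase uses the resulting gradient. Hepatocytes hold many mitochondria and oxidize much of the fatty acid that reaches the liver. Several subunits of complex IV exist as pairs of genes, a form found in most tissues including liver and a form found mainly in heart and skeletal muscle or in testis.

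The mean log2 signal was above the median of all probe sets (7.04) for 116 of the 128 members on MOE430A, and above the median of 6.17 for 13 of the 20 on MOE430B. The values are log2 signals after robust multi-array average (RMA) normalization, and signals of different probe sets are not comparable as amounts of RNA. The members varied more between mice than the average probe set on MOE430A, with a median SD over the 60 mice of 0.19 on the log2 scale against 0.13 over all probe sets, and one of 0.12 against 0.11 on MOE430B. The 12 hepatocyte marker probe sets of MOE430A had mean log2 signals between 11.6 and 14.1. The median of each array lay between 6.97 and 7.09 on MOE430A and between 6.14 and 6.19 on MOE430B. Mice 111, 167, 200, 474, 484 and 559 had an array whose median correlation with the other arrays of its type was over 3 median absolute deviations below the median of all arrays, and results that rest on them are given without these 6 mice.

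In complex IV, Cox4i1, the common form of a nuclear-encoded subunit, gave a log2 signal between 11.31 and 12.11 in the 60 mice, and Cox4i2, its form in lung, between 7.39 and 8.0. Cox6a1, the liver form, ranged from 12.48 to 12.98 in its 1417417_a_at probe set, and Cox6a2, the heart and muscle form, from 7.07 to 7.75 on MOE430A. Cox7a2, the liver form, ranged from 11.43 to 12.49 in 1416970_a_at, Cox7a1, the heart and muscle form, from 4.99 to 5.84, and Cox7a2l, which joins complex III to complex IV in supercomplexes, from 9.03 to 10.11 in 1421772_a_at. Each range is that of 1 probe set over the mice, and its height is not to be read against that of another. Cox8a, the common form, ranged from 11.25 to 12.21 in 1416112_at, and Cox8b, the heart and muscle form, from 6.58 to 7.41. Cox8c, a testis form, ranged from 9.61 to 10.1 on MOE430A, and Cox7b2, also a testis form, from 4.53 to 4.95 on MOE430B. Cox6b1, the common form of its subunit, ranged from 11.22 to 11.96 in 1416565_at, and Cox6b2, its testis form, from 5.97 to 7.84. Among these probe sets the spread between mice was widest for Cox6b2, with an SD of 0.33 on the log2 scale, against 0.21 or less in the others.

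To find loci linked to these signals, interval mapping with 194 markers was run on every probe set. A member was recorded as mapping where its LOD score reached 3.4 somewhere on the autosomes. The LOD score is the log10 of the odds for a locus against none. Of the 128 members on MOE430A, 26 mapped (20.3%), against 15.9% of all probe sets of that array. Of the 20 members on MOE430B, 5 mapped (25%), against 15.8% of all. The median of the highest LOD of each probe set was 2.73 for the members on MOE430A and 2.61 over the array. Of the 31 mapping members, 15 (10 genes) peaked on the chromosome that carries the gene, 10 peaked between 20 and 40 cM on Chromosome 2, and 6 peaked elsewhere.

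A peak on the gene's own chromosome made up 13 of the 26 mapping members of MOE430A with an autosomal gene (50%), against 19.5% of all mapping probe sets of that array with an autosomal gene, and 2 of 5 (40%) on MOE430B, against 16.9%. In 14 of the 15 members (9 of the 10 genes) the mean of the A homozygotes was above that of the B homozygotes, Cox6b2 being the exception. In 14 of the 15 the heterozygote mean lay between the means of the homozygotes, 1452692_a_at of Ndufv2 being the exception. The shares of these orders over all own-chromosome probe sets are not given here. All 15 had a LOD of at least 3.75 at the same position with sex as a covariate. With the first principal component of the array type in the model 14 stayed at 3.4 or above, and Ndufa6 had 3.26.

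The highest score was that of Ndufa12, an accessory subunit of complex I. Its probe set 1455806_x_at reached a LOD of 21.4 at 55.5 cM on Chromosome 10. The log2 signals ran from 11.37 to 11.86 in the 13 A homozygotes (median 11.61), from 10.88 to 11.5 in the 31 heterozygotes (median 11.15) and from 10.09 to 10.9 in the 16 B homozygotes (median 10.59). The homozygote groups did not overlap, and the means were 11.62 ± 0.15, 11.18 ± 0.17 and 10.57 ± 0.23 (SD). A second probe set of the gene, 1433513_x_at, peaked at 45 cM with a LOD of 6.47. Another, 1418814_s_at, had a LOD of 0.05 at 55.5 cM, with group means of 10.62, 10.65 and 10.64 in A, H and B, so that the probe sets of this gene did not give 1 answer. The last, 1425919_at, with a mean log2 signal of 4.40, had a LOD of 1.38 there and A homozygotes lower than B by 0.10.

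Uqcr10, a small subunit of complex III, had a LOD of 19.9 at 0 cM of Chromosome 11 in 1434340_at. Its log2 signal ran from 8.25 to 9.24 in the 13 A homozygotes (median 8.85), from 7.25 to 8.88 in the 29 heterozygotes (median 8.31) and from 7.08 to 8.14 in the 18 B homozygotes (median 7.40). The A and B homozygotes did not overlap, and the heterozygotes overlapped both. The A minus B difference was 1.42 on the log2 scale. 1434341_x_at of the same gene had a LOD of 12.5 at 5 cM and a difference at 0 cM of 0.51. The probe set 1424364_a_at had a LOD of 1.54 at 0 cM, and there the A homozygotes averaged 11.21 and the B homozygotes 11.34, the opposite order.

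Uqcrc2, a core protein of complex III, peaked on Chromosome 7 in both its probe sets, with a LOD of 9.99 at 65 cM for 1435757_a_at and 4.53 at 58 cM for 1428631_a_at. In 1435757_a_at the log2 signal was 9.61 ± 0.20 in the 11 A homozygotes, 9.34 ± 0.26 in the 31 heterozygotes and 8.96 ± 0.32 in the 18 B homozygotes (SD). Regression on genotype probabilities (Haley-Knott) gave it a LOD of 8.62. Ndufc2, a subunit of the membrane arm of complex I, peaked at the same 58 cM on both array types, with a LOD of 7.34 for 1416366_at on MOE430A and 4.93 for 1460506_s_at on MOE430B. The A minus B difference was 0.69 on MOE430A and 0.58 on MOE430B, and the ranges of the homozygotes overlapped on both (8.44 to 9.41 in A and 7.44 to 8.57 in B on MOE430A, 8.85 to 9.86 in A and 8.15 to 9.12 in B on MOE430B). The 2 other probe sets of Ndufc2 had LOD scores of 1.84 and 0.16 at 58 cM.

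Of the other own-chromosome members, Ndufs5, an accessory subunit of complex I, had a LOD of 8.30 at 75 cM of Chromosome 4 and group means of 9.38 ± 0.25, 9.06 ± 0.23 and 8.84 ± 0.18 in 17 A, 32 H and 11 B mice (SD). Cox6b2 had a LOD of 5.83 at 0 cM of Chromosome 7 and was the member in which the B homozygotes were high, with 6.31 ± 0.23, 6.56 ± 0.25 and 6.86 ± 0.35 in 19 A, 27 H and 14 B mice (SD). Ndufa6, which binds the acyl carrier protein in complex I, had a LOD of 4.48 at 15 cM of Chromosome 15, with 9.93 ± 0.15, 9.72 ± 0.26 and 9.54 ± 0.19 in 14 A, 32 H and 14 B mice (SD). Cox7a2 peaked on Chromosome 9 in both probe sets, at 75 and 79.7 cM, with LOD scores of 4.37 and 4.17 and A minus B differences of 0.26 and 0.27. Ndufv2, which carries an iron-sulfur cluster of complex I, had a LOD of 3.73 at 73.8 cM of Chromosome 17 in 1452692_a_at, and 0.52 and 1.37 there in its other probe sets. In it the 11 A homozygotes stood alone, with 10.25 ± 0.19 against 9.94 ± 0.23 in heterozygotes and 9.99 ± 0.15 in B homozygotes (SD). On MOE430B, the assembly factor Ndufaf6 had a LOD of 4.47 at 0 cM of Chromosome 4, with 6.78 ± 0.20, 6.71 ± 0.19 and 6.47 ± 0.17 in 16 A, 28 H and 16 B mice (SD).

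**Figure D1:**
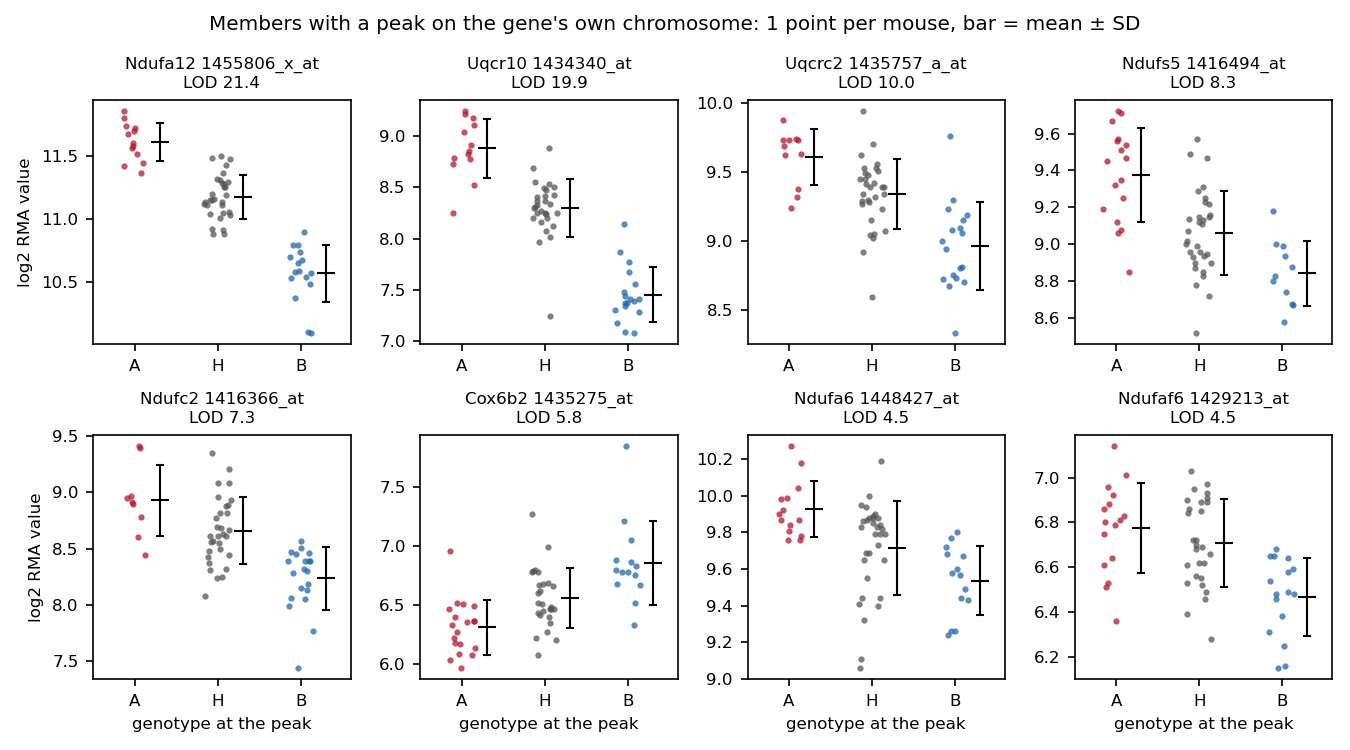
Log2 RMA values (y axis) of 8 members that peaked on the chromosome of their gene, by genotype at the peak (x axis: A and B homozygotes, H heterozygotes); each point is a mouse and each bar is the group mean ± SD. A homozygotes were highest in 7 of the panels and B homozygotes in that of Cox6b2, and A and B separated fully in Ndufa12 and Uqcr10.

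Peaks between 20 and 40 cM on Chromosome 2 were the other recurring position. Of the 128 members on MOE430A, 10 reached a LOD of 3.4 with the peak there (7.81%), against 2.36% of all probe sets of the array, and of the 20 on MOE430B none did, against 0.25%. They were Ndufab1, the acyl carrier protein (LOD 5.81), Sdhd and Sdhc, the membrane anchors of complex II (4.26 and 3.75), Uqcrfs1, the Rieske iron-sulfur protein of complex III (4.18), Uqcrh, its hinge protein (4.05), Uqcrq, another small subunit of complex III (3.55), and Ndufb6, Ndufc1, Ndufs7 and Ndufb5 of complex I (3.79, 3.74, 3.67 and 3.46). None was a complex IV gene. At any score, 38 of the 128 members on MOE430A (29.7%) had their genome-wide peak in the region, against 10.1% of all probe sets, and 70 (54.7%) had Chromosome 2's highest score there, against 35.4%. On MOE430B, 2 of 20 (10%) did the second, against 16.7%. The scores depended on the model and on 1 mouse. With sex as a covariate 2 of the 10 stayed at 3.4 or above at their peak, Ndufab1 (4.28) and Uqcrq (3.41), and with the first principal component in the model also 2, Ndufab1 (4.62) and Uqcrq (3.68). When the genome was scanned anew, 2 members (1.56%) reached 3.4 with the peak in the region in the model with sex, against 0.968% of all probe sets of MOE430A, and 8 members (6.25%) in the model with the first principal component, against 0.866%. Without mouse 474, 24 members on MOE430A reached 3.4 with the peak in the region. The share over all probe sets without this mouse is not given here, so 24 cannot be set against the array.

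The 6 mapping members elsewhere were Cox6c at 2.1 cM and Cox6a1 at 73.8 cM of Chromosome 17 (LOD 3.81 and 3.65), 1436149_at of Cox5b on Chromosome 12 (3.47), and, on MOE430B, Ndufa4l2 on Chromosome 19 (3.79) and both probe sets of the assembly factor Ndufaf8, on Chromosomes 18 and 13 (3.56 and 3.43). For Ndufaf8 the LOD of 3.56 in 1448003_at became 1.13 under Haley-Knott regression, and the group means were 7.83, 7.83 and 7.88 in A, H and B with SDs of 0.07, 0.13 and 0.17.

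At 30 cM of Chromosome 2, a position the study named from these arrays, the 25 heterozygotes were compared with the 35 homozygotes (13 A and 22 B). The comparison was made with limma across all probe sets. Its mice, arrays and genotypes are those of the scan, so its calls restate the Chromosome 2 peaks and are not separate evidence. In the heterozygotes 30 of the 128 members on MOE430A were higher at an adjusted p under 0.05 (Benjamini-Hochberg over all 45037 probe sets), against 2.18% of all probe sets of the array, and 0 were lower, against 3.97%. Of the 25 heterozygotes 19 were female, against 12 of the 35 homozygotes, and with sex as a covariate 1 member was called, Ndufab1, and over all probe sets of MOE430A 37 were higher and 26 lower. Without the covariate, at an unadjusted p under 0.05, 69 members were higher and 6 lower. Over all 22626 probe sets of the array 2411 were higher and 4977 lower at that threshold. The median difference over the members was 0.10 on the log2 scale, against -0.02 over the array. The heterozygote mean was above both homozygote means in 82.8% of the 128 members, against 31.4% of all probe sets of the array. In bulk liver, fewer cells of a type and less RNA per cell cannot be told apart. On MOE430B, 0 of the 20 members were called higher, against 0.236% of all, and 0 lower, against 0.294%. At an unadjusted p under 0.05 by limma 2 were higher and 0 lower, against 857 and 1351 of all 22411 probe sets.

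The largest difference was that of Ndufab1, in 1428159_s_at. Its log2 signal ran from 9.87 to 10.77 in the heterozygotes (median 10.27), against 9.75 to 10.35 in A homozygotes (median 10.00) and 9.78 to 10.21 in B homozygotes (median 9.99). The groups overlapped, and the median heterozygote lay above the highest B homozygote. The difference was 0.28 ± 0.048 (SE; adjusted p = 0.00669 by limma). This value is that of 1 probe set. The mean of the 3 MOE430A probe sets of Ndufab1 differed by 0.098, and that of its 2 MOE430B probe sets by -2.0e-05. Uqcrfs1 had 10.77 ± 0.20 in heterozygotes, 10.53 ± 0.16 in A and 10.59 ± 0.18 in B homozygotes (SD), a difference of 0.21 ± 0.047 (SE; adjusted p = 0.0170). Ndufb6 had 10.17 ± 0.20, 9.93 ± 0.20 and 9.98 ± 0.14 in H, A and B (SD), also a difference of 0.21. Sdhd, in 1428235_at, had 10.37 ± 0.18 in heterozygotes, against 10.09 ± 0.24 in A and 10.21 ± 0.22 in B homozygotes (SD; difference 0.23, adjusted p = 0.0195). Uqcrh had the narrowest groups of these, with 11.14 ± 0.13, 10.96 ± 0.14 and 11.04 ± 0.10 in H, A and B (SD; difference 0.14, adjusted p = 0.0178). The differences of the 30 members called lay between 0.13 and 0.28.

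By complex, 20 of 68 complex I members on MOE430A were called (15 genes), 0 of 6 assembly factor members, 3 of 7 complex II members, 5 of 15 complex III members and 2 of 32 complex IV members, all higher in heterozygotes. The median differences were 0.13, 0.04, 0.10, 0.11 and 0.04 in that order. Of the core subunits of complex I, which carry its flavin and iron-sulfur clusters, Ndufs7 (1451312_at, 0.20), Ndufs8 (1423908_at, 0.21) and Ndufv2 (1428179_at, 0.16) were called in 1 probe set each. Ndufs1 (0.11, adjusted p = 0.175), Ndufs3 (0.13, adjusted p = 0.108) and the 3 probe sets of Ndufv1 (0.07 to 0.14, adjusted p 0.0778 to 0.402) did not pass. Around the core, the accessory subunits Ndufa1, Ndufa3, Ndufa9, Ndufb5, Ndufb9, Ndufb11 and Ndufc1 were called with differences between 0.14 and 0.22, Ndufs4 with 0.22, and Ndufa7 in 4 of its 5 probe sets with 0.17 to 0.26.

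In complex II, Sdha, the flavoprotein (1426688_at, 0.21, adjusted p = 0.0369), and the anchors Sdhc (1448630_a_at, 0.24, adjusted p = 0.0280) and Sdhd rose, and Sdhb, the iron-sulfur subunit, had 0.10 (adjusted p = 0.25). The second probe sets of Sdha, Sdhc and Sdhd had 0.08, 0.10 and 0.09 (adjusted p 0.102 to 0.341). In complex III, Uqcrfs1, Uqcrh, Uqcr11 (0.17), Uqcrq (1430326_s_at, 0.13) and Uqcrc2 (1428631_a_at, 0.17) rose. Uqcrb had 0.27 in 1416337_at (adjusted p = 0.0594) and less than 0.01 in size in 1455997_a_at, 1435757_a_at of Uqcrc2 had 0.20 (adjusted p = 0.157), Uqcrc1, the other core protein, had 0.11 (adjusted p = 0.197), and the 3 probe sets of Uqcr10 had 0.07 to 0.10 (adjusted p 0.0917 to 0.778). In complex IV, Cox5a (1448153_at, 0.16, adjusted p = 0.0433) and Cox5b (1416902_a_at, 0.15, adjusted p = 0.0469), which form a pair of matrix-side subunits, rose. None of the isoforms of subunits 4, 6, 7 and 8 named above passed. Cox4i1 had 0.13 (adjusted p = 0.107) and Cox8a up to 0.13 (adjusted p = 0.0604 in 1416112_at). Cox6a1 had 0.02 and 0.07 (adjusted p = 0.752 and 0.277), Cox6b1 0.10 and 0.04 (0.108 and 0.511), Cox7a2 0.06 and 0.09 (0.485 and 0.354) and Cox7a1 0.03 (0.689), while Cox4i2 had -0.01 (0.868), Cox6b2 -0.10 (0.514) and Cox8b -0.06 (0.434). The 5 lowest test statistics on MOE430A were those of both Cox7c probe sets 1459884_at and 1459885_s_at (-0.07 and -0.08), 1452613_at of Uqcrq (-0.07), Cox6a2 (-0.07) and Cox8c (-0.06), with adjusted p between 0.0718 and 0.170. On MOE430B the highest were Uqcrh (0.18, adjusted p = 0.0650), 1460506_s_at of Ndufc2 (0.25, adjusted p = 0.136), the assembly factors Ndufaf2 (0.10, adjusted p = 0.307) and Ndufaf8 (0.05 and 0.06), and the lowest were Cox6a2 (-0.05), 1431670_at of Ndufc2 (-0.03), 1458678_at of Ndufab1 (-0.03), Cox7b2 (-0.02) and Ndufa3 (-0.01).

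**Figure D2:**
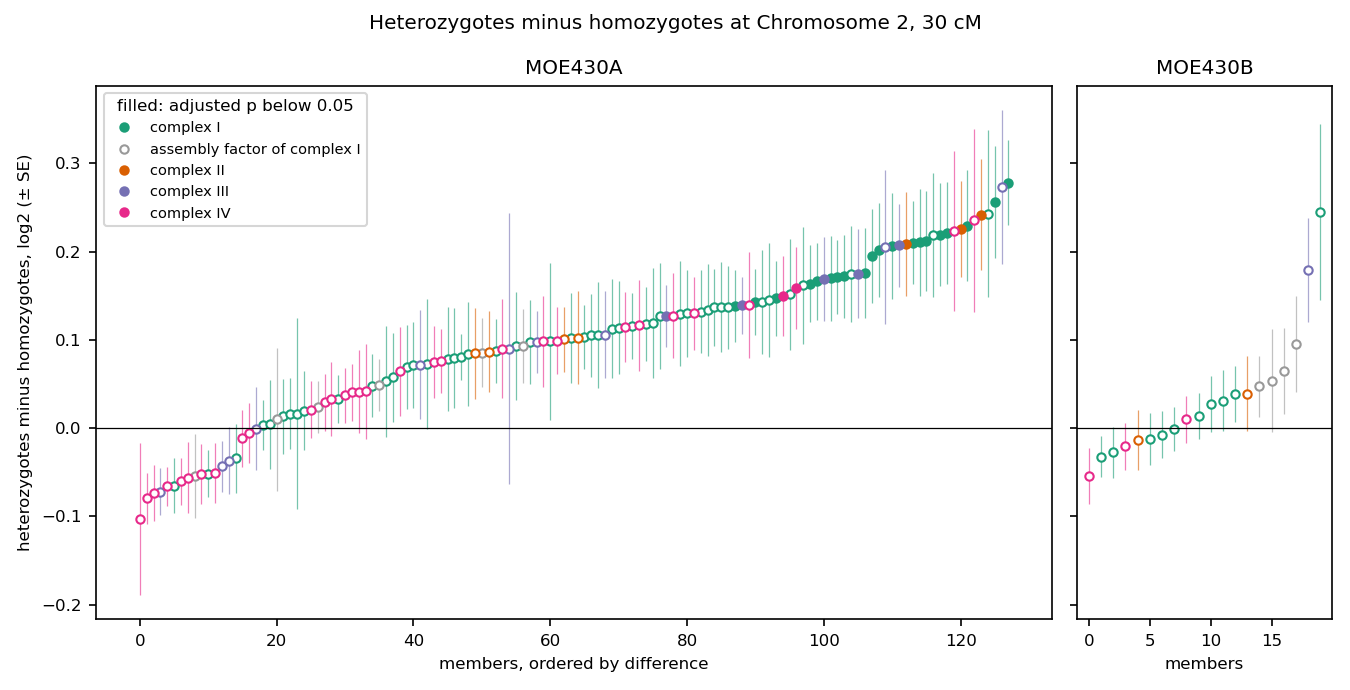
Difference between heterozygotes and homozygotes at 30 cM of Chromosome 2 for every member (y axis, log2 scale, ± SE), ordered by size (x axis) and coloured by complex, on MOE430A and MOE430B; filled circles mark an adjusted p below 0.05. On MOE430A 110 of 128 members lie above 0 and 30 are filled, and on MOE430B 12 of 20 lie above 0 and none is filled.

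Probe sets of 1 gene did not always move together. Of the 67 genes on MOE430A, 25 had a member called, and of the 20 of these that had several members, 2 had every member called. Over all pairs of MOE430A members of 1 gene the median correlation across the 60 mice was 0.60. It ran from -0.53, between 1428159_s_at of Ndufab1 (mean log2 signal 10.1) and 1435934_at (4.48), to 0.96, between 1416112_at and 1448222_x_at of Cox8a.

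Since sex and genotype were associated in these mice, the members were also read with sex in the model and within each sex. With sex as a covariate the difference of Ndufab1 was 0.25 (adjusted p = 0.0355 by limma) and the median difference of the members was 0.12. Within females (19 heterozygotes and 12 homozygotes), heterozygotes were above homozygotes in 112 of the 128 members. Within males (6 heterozygotes and 23 homozygotes) they were above in 108, with median differences of 0.11 in both sexes. The share over all probe sets within each sex is not given here. The members correlate with each other, so these counts are not of separate observations. All 30 members called had a positive difference within each sex. They were called on these same mice, so the signs were largely fixed by the choice and lend no support. With the first principal component in the model 3 members were called, Ndufab1 (0.21), Ndufa3 (1428464_at, 0.17) and 1448483_a_at of Ndufb2 (0.27), with adjusted p of 0.0328, 0.0449 and 0.0328, and the median was 0.10. Over all probe sets of MOE430A 19 were then higher and 24 lower. Mouse 474, a female heterozygote whose MOE430A array stood apart, had the lowest value of all 60 mice in 42 of the 128 members. Without it 54 members were called higher and 1 lower, and without the 6 mice with an array apart, which leaves 54, 49 were called higher and 2 lower. The counts over the array moved with them, to 1236 higher and 2302 lower without mouse 474 and to 1585 higher and 2887 lower without the 6 mice, against 494 and 898 in all mice.

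Other mitochondrial genes were counted the same way on MOE430A. Of the ATP synthase probe sets 7 of 28 were called higher and 0 lower, with 19 higher and 0 lower at an unadjusted p under 0.05 and a median difference of 0.12. The array as a whole had 2411 higher and 4977 lower at that threshold among 22626 probe sets. Of the citric acid cycle probe sets 3 of 19 were called higher and 0 lower, of the mitochondrial ribosomal proteins 7 of 127 higher and 1 lower, and of the assembly and copper genes of complex IV 2 of 18 higher, Coa3 (1423840_at, 0.27) and Cox18 (0.19). Among 25 probe sets of genes that control mitochondrial gene expression, such as Ppargc1a, Nrf1 and Gabpa, 1 was called, Tfam, the packaging factor of mitochondrial DNA (0.20, adjusted p = 0.0444). None of the 5 probe sets of the cytochrome c genes and Cyc1 was called by limma (1 higher and 1 lower at an unadjusted p under 0.05). Of the probe sets of 53 cytosolic ribosomal protein genes 3 were called higher and 2 lower, with a median difference of 0.02.

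Markers of the cell types a liver sample can hold were compared across the same groups. No probe set of the hepatocyte (12), Kupffer (6), cholangiocyte (3), pancreatic acinar (8), skeletal muscle (9), adipocyte (3) and erythrocyte (2) lists was called by limma, with 5 acinar, 4 muscle and 1 each of the Kupffer, cholangiocyte, adipocyte and erythrocyte probe sets lower and none higher at an unadjusted p under 0.05. Of the stellate markers 1 of 9 was called lower, and of the endothelial markers 1 of 8 was called higher and 1 lower. Over all 22626 probe sets of the array 2411 were higher and 4977 lower at an unadjusted p under 0.05 by limma. The summed linear signal of the hepatocyte list ran from 1.04e+05 to 1.43e+05 in heterozygotes, from 1.13e+05 to 1.41e+05 in A homozygotes and from 1.04e+05 to 1.45e+05 in B homozygotes, so that the groups overlapped. That of the Kupffer list ran from 1110 to 2489 in heterozygotes, 1008 to 2274 in A and 1095 to 2036 in B homozygotes. The adipocyte list, the most variable of these, ran from 414 to 2516 in heterozygotes (median 1164), 473 to 2699 in A (median 692) and 321 to 2194 in B homozygotes (median 879). Its 3 markers differed in sign, and none was called. Cidea, a lipid droplet protein that fatty hepatocytes also make and the brightest of the 3, had a difference of 0.38 between heterozygotes and homozygotes (adjusted p = 0.460), and it rose with liver triglyceride by 0.87 per SD (adjusted p = 2.99e-09 by limma). Ucp1 and Adipoq had differences of -0.09 and -0.06 (adjusted p = 0.0822 and 0.395). RMA values have no 0, and the part of these cell types in the result was not tested.

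Promoters were read for the letters of factors known from respiratory chain genes. Of the 73 genes, 59 had a window of 250 bases before to 50 after a start site in the RefSeq table used here (GRCm38.p6). A motif of nuclear respiratory factor 1 (NRF1, GCATGCGC), the estrogen-related receptors (ERR, TCAAGGTCA), ETS factors such as GABP (CCGGAAG) or YY1 (AAGATGGCG), on either strand, was in the windows of 22 of the 59 genes (37.3%), against 14.0% of all 27025 genes with a window. NRF1 was in 8 (13.6%, against 3.05%), ETS in 13 (22.0%, against 9.93%), YY1 in 5 (8.47%, against 1.64%) and ERR in 1 (1.69%, against 0.47%). Of the 21 genes with a window and a member called higher in heterozygotes, 4 carried YY1 (19.0%), 5 ETS (23.8%), 1 NRF1 and 1 ERR. A match is a description of the letters and shows no binding. In the 4 YY1 genes among them the motif lay 22 to 35 bases after the start site, and the 30 bases that end with it are shown, 5′ to 3′ on the strand of the gene and with the motif in capitals, to let the contexts be compared.
Ndufa9, chr6:126849107-126849136, minus strand: ggccgtgaggcattgtgggagAAGATGGCG
Ndufc1, chr3:51408925-51408954, minus strand: aagaggcggagcctgcggaacAAGATGGCG
Ndufs4, chr13:114388051-114388080, minus strand: atcctggcgtttgcctacaggAAGATGGCG
Ndufs7, chr10:80249452-80249481, plus strand: ggttgtctgaaggccgaggccAAGATGGCG
All 4 are subunits of complex I, with differences in heterozygotes of 0.15, 0.17, 0.22 and 0.20.

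ETS motifs of 4 called genes lay before the start site, as in Sdhd and Uqcrh, whose Chromosome 2 scores were among the highest, and 150 bases of each are shown in the same way, with the motif in capitals (CTTCCGG is the motif on the opposite strand).
Sdhd, chr9:50603850-50603999, minus strand: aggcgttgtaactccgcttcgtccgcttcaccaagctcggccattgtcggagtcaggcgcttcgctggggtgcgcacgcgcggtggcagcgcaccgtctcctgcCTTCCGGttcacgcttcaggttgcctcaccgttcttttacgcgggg
Uqcrh, chr4:116075071-116075220, minus strand: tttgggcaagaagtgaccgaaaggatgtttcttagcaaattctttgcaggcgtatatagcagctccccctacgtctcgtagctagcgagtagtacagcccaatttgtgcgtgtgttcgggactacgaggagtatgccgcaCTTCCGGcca
Uqcr11, chr10:80406822-80406971, minus strand: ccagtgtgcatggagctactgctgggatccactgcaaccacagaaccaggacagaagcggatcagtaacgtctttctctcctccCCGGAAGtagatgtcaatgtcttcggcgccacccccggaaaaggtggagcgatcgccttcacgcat
Ndufb6, chr4:40279514-40279663, minus strand: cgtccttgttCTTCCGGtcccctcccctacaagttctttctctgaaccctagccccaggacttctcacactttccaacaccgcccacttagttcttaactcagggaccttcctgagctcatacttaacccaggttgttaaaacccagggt
The motif began 46 bases before the start site in Sdhd, 10 before it in Uqcrh, 66 before it in Uqcr11 and farthest from it in Ndufb6.

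For the 10 genes with members on both array types, the mean of a gene's MOE430A members and that of its MOE430B members were compared within each mouse. The correlation between types across the 60 mice was 0.77 for Ndufc2, 0.62 for Uqcrh, 0.23 for Cox8c, 0.17 for Ndufb2, 0.10 for Cox6a2, 0.06 for Ndufab1, 0.05 for Ndufa3, -0.01 for Ndufb8, -0.18 for Ndufs4 and -0.28 for Sdha. The median of 0.08 was close to the 0.10 over all 3747 genes on both types. Both genes with a high correlation had a MOE430B member with an s suffix, which marks probes shared by several transcripts, and these gave mean log2 signals of 8.95 and 10.63. The MOE430B members of Ndufs4 and Ndufa3 had 3.43 and 5.29.

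The heterozygote effect on MOE430A minus that on MOE430B was tested with limma over the 3747 genes. It was higher at an adjusted p under 0.05 for 1 of the 10 respiratory chain genes, Ndufb2, against 0.667% of all genes, and lower for 0, against 0.747%. Ndufb2, an accessory subunit of complex I, had a heterozygote effect of 0.21 on MOE430A and -0.01 on MOE430B, a difference of 0.22 ± 0.058 (SE; adjusted p = 0.0433). Without pairing the arrays by mouse 0 of the 10 genes passed, with sex as a covariate 0 passed, and without mouse 474, and without the 6 mice apart, 2 passed. Of the other 9 genes the unadjusted p was under 0.05 for Ndufab1 (0.10), Ndufa3 (0.13), Ndufs4 (0.10) and Sdha (0.13) with the larger effect on MOE430A and for Cox8c (-0.07) the other way, with adjusted p between 0.0935 and 0.201.

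**Figure D3:**
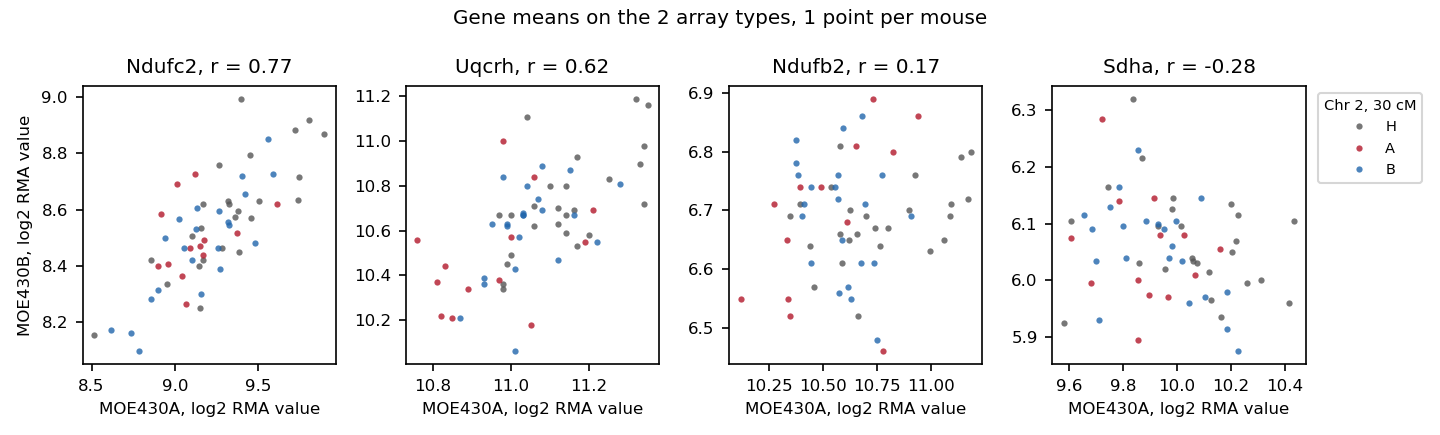
Mean log2 RMA value of a gene's MOE430A members (x axis) and MOE430B members (y axis) in each of the 60 mice, for Ndufc2, Uqcrh, Ndufb2 and Sdha, coloured by genotype at 30 cM of Chromosome 2. The types rise together in Ndufc2 (r = 0.77) and Uqcrh (r = 0.62) and not in Ndufb2 (r = 0.17) or Sdha (r = -0.28).

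The members varied jointly across the mice. The mean of the pairwise correlations of the 128 members on MOE430A was 0.22, against 0.02 over all pairs of the array, and 22.5% of the 8128 pairs had r of 0.5 or more. On MOE430B it was 0.04, against 0.01, and between members of different array types 0.08, against 0.00. These values describe 60 mice whose members share a liver and an array, and no test was made of them. Within complex I the mean was 0.36, within complex II 0.29, within complex III 0.11 and within complex IV 0.10, and between complex I and complex IV it was 0.18. The 116 members above the array's median signal had a mean of 0.27 among themselves and the 12 below it 0.00. With ATP synthase the members had a mean of 0.29, above that of 0.18 with mitochondrial and 0.13 with cytosolic ribosomal proteins. Within these other lists on MOE430A the mean was 0.38 for ATP synthase, 0.21 for cytosolic and 0.17 for mitochondrial ribosomal proteins. Within the citric acid cycle list it was 0.13. A mean of 0.22 was therefore not particular to the respiratory chain.

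Of the 128 members, 38 had r of 0.7 or more with the mean profile of the others. The highest were 1455749_x_at of Ndufa7 (0.87), 1416834_x_at of Ndufb2 (0.85), 1416057_at of Ndufb11 (0.85), 1428179_at of Ndufv2 (0.84) and 1436567_a_at of Ndufa7 (0.84). In 16 members r was below 0, led by 1452613_at of Uqcrq (-0.64), Cox8c (-0.60), 1435934_at of Ndufab1 (-0.49), 1455934_at of Ndufb9 (-0.49) and Cox6a2 (-0.44). Among the isoforms of complex IV, Cox4i1 (0.77), 1416565_at of Cox6b1 (0.76), 1417418_s_at of Cox6a1 (0.73) and Cox8a (0.69 in 1416112_at) followed the other members, while Cox4i2 (-0.12), Cox6a2 and Cox8b (-0.19) did not. In complex II, Sdhb (0.77) and Sdhd (0.67 in 1428235_at) followed them more closely than Sdha (0.28 and 0.24). The profiles of complexes I and IV, each a mean over its members rescaled to mean 0 and SD 1, correlated at 0.85, those of I and III at 0.81 and those of I and II at 0.70, while II and IV had 0.40.

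**Figure D4:**
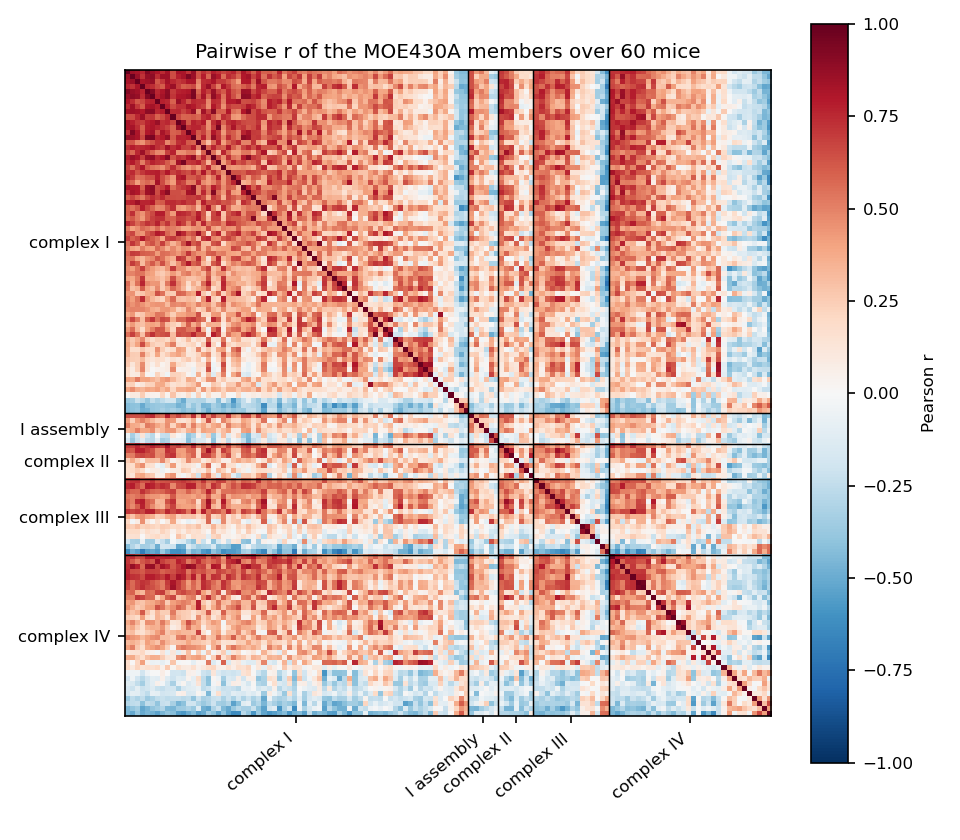
Pearson correlation across the 60 mice (colour) between all pairs of the 128 members on MOE430A, ordered by complex and, within a complex, by correlation with the other members. Complex I is the most uniform block (mean r = 0.36), and complexes III and IV each hold members that ran against the rest.

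The mean profile of the 128 members put the heterozygotes highest. It was 0.25 ± 0.50 in heterozygotes, -0.24 ± 0.44 in A homozygotes and -0.15 ± 0.32 in B homozygotes (SD, in units of the SD of each member), with ranges of -1.18 to 1.10, -0.77 to 0.58 and -0.67 to 0.42. The lowest mouse of all was 474, and without it the 24 other heterozygotes ran from -0.31 to 1.10. In females the profile averaged 0.23 in 19 heterozygotes and -0.24 in 12 homozygotes, and in males 0.35 in 6 heterozygotes and -0.15 in 23 homozygotes. The MOE430B profile was 0.07 ± 0.27, -0.05 ± 0.34 and -0.05 ± 0.31 in H, A and B (SD). The 2 profiles correlated at 0.54 across the mice (Spearman's rho 0.57, and r = 0.58 without the 2 mice farthest from the median). The MOE430A profile had r = 0.16 with the first principal component of its arrays.

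**Figure D5:**
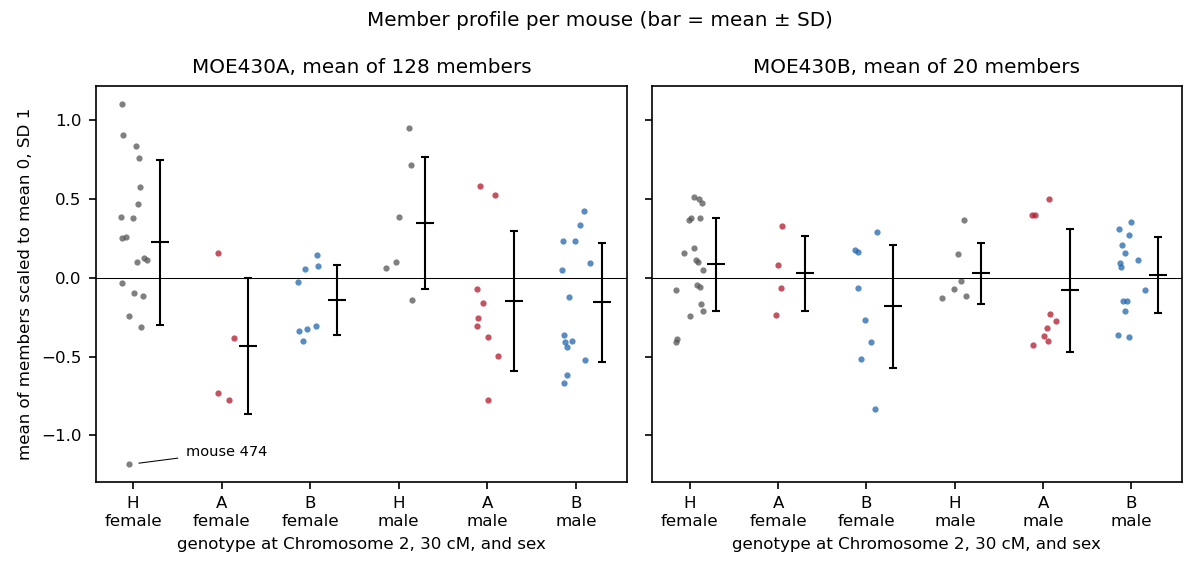
Mean of the rescaled members per mouse (y axis, SD units) on MOE430A (left) and MOE430B (right), by genotype at 30 cM of Chromosome 2 and sex (x axis); each point is a mouse and bars are mean ± SD. On MOE430A heterozygotes average highest in both sexes with wide overlap, and mouse 474 (-1.18) is the lowest of all.

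Outside the member list, the probe sets closest to the MOE430A profile were 1416567_s_at of Atp5e (r = 0.92), Atp5j2 (0.90) and Atp5h (0.90), 3 subunits of ATP synthase, Pcbd2, a pterin dehydratase that also binds HNF1 (0.87), and 1418886_s_at of Idh3b, a subunit of the citric acid cycle's isocitrate dehydrogenase (0.86), all over 60 mice. None of the 22391 other probe sets on MOE430B had r of 0.7 or more with it. The closest to the MOE430B profile were Fcf1 (0.67), Pdss2, which makes the side chain of ubiquinone (0.67), Calr3 (0.65), Tcn2 (0.65) and Zfp629 (0.64).

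Between 31 females and 29 males, 1 of the members of both types was higher in females, against 1.03% of all probe sets, and 0 were lower, against 0.411% (limma; 19 higher and 6 lower at an unadjusted p under 0.05). It was 1435986_x_at of Sdhc, with 10.56 ± 0.13 in females and 10.41 ± 0.13 in males (SD) and ranges of 10.25 to 10.84 in females and 10.19 to 10.70 in males, a difference of 0.15 ± 0.033 (SE; adjusted p = 0.00725). Without the 6 mice apart 10 members were higher in females, among them both Sdhc probe sets, Uqcrb (1416337_at, 0.30) and Cox8a (0.15 in 2 probe sets), and without mouse 474 there were 7. The shares over all probe sets without these mice are not given here. With the first principal component in the model 0 were higher and 1 was lower, 1435333_at of Ndufaf4. The 4 members of the X-linked genes Ndufa1 and Ndufb11 differed by -0.10 to 0.06 between the sexes (adjusted p 0.408 to 0.853).

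The members were set against 5 phenotypes, which were body weight, the glucose, insulin and triglyceride of plasma at 10 weeks, and liver triglyceride. At 10 weeks glucose ran from 101.8 to 601.4 mg/dl and body weight from 45.8 to 72.7 g in the 60 mice. No member had a slope at an adjusted p under 0.05 with any of the 5, in any setting tried, and few probe sets of the arrays did, with 0.00666% higher and 0.0178% lower for glucose, 0% and 0.0133% for insulin, 0% and 0% for plasma triglyceride and for body weight, and 0.122% and 0.113% for liver triglyceride. At an unadjusted p under 0.05 by limma, 1 of the members of both types was higher and 2 lower with glucose, 0 and 6 with insulin, 3 and 1 with plasma triglyceride, 0 and 3 with body weight and 6 and 4 with liver triglyceride. Over all 45037 probe sets 2495 were higher and 1780 lower with glucose at that threshold, and 1387 and 1925 with insulin. These counts were 1476 and 1334 for plasma triglyceride, 1429 and 2032 for body weight and 1683 and 2728 for liver triglyceride. Whether the members' counts differ from those of the arrays was not tested.

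The slopes with the smallest p are given per SD of the phenotype on the log2 scale. With glucose they were those of Ndufab1 (1428159_s_at, -0.07, adjusted p = 0.395) and Cox6b2 (0.10, adjusted p = 0.408), and with insulin those of Sdhb (-0.07, adjusted p = 0.438) and Cox6b2 (-0.10, adjusted p = 0.532). Cox6b2 thus had slopes of opposite sign with glucose and insulin, neither past the threshold. With plasma triglyceride they were 1416056_a_at of Ndufb11 (0.09, adjusted p = 0.686) and 1428160_at of Ndufab1 (0.07, adjusted p = 0.751), and with body weight 1433513_x_at of Ndufa12 (-0.07, adjusted p = 0.536) and 1435613_x_at of Cox5b (-0.04, adjusted p = 0.542). With liver triglyceride they were 1416970_a_at of Cox7a2 (0.07, adjusted p = 0.209) and the assembly factor Ndufaf6 (-0.08, adjusted p = 0.209). The MOE430A profile had r between -0.13 (insulin, 57 mice) and 0.11 (plasma triglyceride, 56 mice) with the 5 measures. With simulated slopes of 0.125 per SD, limma recovered 92% of the changed probe sets, and of slopes of 0.05 it recovered 17.5%. The simulation placed 200 changes in probe sets drawn at random, with independent noise. Its shares do not carry over to the members, which varied more than the average probe set on MOE430A.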

How the data were processed

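The authors hybridized liver RNA of 60 F2-ob/ob mice to MOE430A and MOE430B arrays and deposited log2 RMA values. Per the labels RMA was used, and MAS5 is also named, without versions. The deposited table of genotypes, sex and phenotypes gave plasma insulin as log10 values and the other phenotypes as measured. Plasma triglyceride and liver triglyceride were converted to log10 here. Measurements deposited by the authors in other units (mg/dl, g) were kept. Gene symbols came from the platform annotation, updated through RefSeq (GRCm38.p6). Of 45037 probe sets 34945 had 1 symbol, 932 several and 9160 none.

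Interval mapping by EM (after R/qtl) used 194 markers, 5-cM steps, 545 positions and a genotyping error of 0.0001, with the threshold of 3.4 that the study used. Group differences and slopes were tested with limma 3.58.1 in R 4.3.3, adjusted by Benjamini-Hochberg over all probe sets. At 30 cM of Chromosome 2 each mouse took its most likely genotype (lowest probability 0.765). The scan and the correlations were computed with numba 0.67.0, pandas 2.3.3, scipy 1.17.1 and numpy 2.4.6 (Python 3.11.15). For genes on both array types the arrays of 1 mouse were paired. Deviations of the same mouse on the 2 types correlated with a median of 0.196 (0.00147 to 0.405), against -0.00298 between different mice, and 46 of 60 mice matched their own best. The pairing comes from the labels, which give both arrays of a mouse its number.

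On simulated data limma recovered 91% of 200 probe sets changed by 0.25 between heterozygotes and homozygotes and 11% of those changed by 0.1. The scan recovered 61% of loci of 20% of the variance. The simulated noise was independent between probe sets, so these shares are not those of the members. The number of arrays limits the precision. The members and lists were chosen with earlier results of these data known. The genes named were the mapping members, those with the largest test statistics in each comparison, genes on both array types, the isoforms of complex IV, all genes of complexes II and III, the core subunits of complex I and the closest partners of the profiles. Ndufa and Ndufb genes listed as called beyond these were chosen after their values were seen. Real-time PCR columns, the table of 110 mice and the text on phenotypes were not used here.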

Additional observations from a re-analysis of the deposited data

Results flagged for a closer look

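Ndufb2 is listed here because its heterozygote effect at Chromosome 2 differed between the array types, by 0.22 on the log2 scale (0.21 on MOE430A and -0.01 on MOE430B, n = 60 mice, adjusted p = 0.0433 by limma over 3747 genes). Its 2 MOE430A members had a mean log2 signal of 10.6 and its MOE430B member one of 6.69, and the 2 types correlated at 0.17 across the mice. Genotype groups of 4 to 10 mice were also searched for single mice far from the rest of their group, and 0 of the 11 groups examined had one.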

How the results depend on the processing

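Each count was repeated under other settings, and 124 of the 150 values stayed within 1.5 times the count reported or within the spread of the value. Many of these were counts of 0 that stayed 0, among them all those of the 5 phenotypes, and others were mean correlations. The share is therefore no measure of how stable the other counts were. For LOD of 3.4 or greater (26 members on MOE430A and 5 on MOE430B), 45 mapped on MOE430A without mouse 474, and 3 on MOE430B with markers alone and 3 with 145 markers. At a threshold of 5.0 these were 9 and 0. For peaks in the Chromosome 2 region on MOE430A (10), there were 5 with markers alone, 2 with sex as a covariate, 19 without the mice apart, 24 without mouse 474 and 1 at a threshold of 5.0. For members called higher in heterozygotes on MOE430A (30), there were 1 with sex as a covariate, 3 with the first principal component, 19 with observed calls at the nearest marker (26.4 cM, 58 mice), 49 without the mice apart and 54 without mouse 474. Members called lower on MOE430A (0) were 2 without the mice apart and 1 without mouse 474, and members called higher on MOE430B (0) were 1 without mouse 474. For the difference between array types (1 gene), 0 were called with no replicate block, that is without pairing the arrays of a mouse, 0 with sex as a covariate, 2 without the mice apart and 2 without mouse 474. For members higher in females (1), 0 were called with the first principal component, 10 without the mice apart and 7 without mouse 474, and for members lower in females (0), 1 with the first principal component. The cause of these changes was not tested. For the LOD and sex counts, the shares over all probe sets without mouse 474 or the mice apart are not given here. Counts for the 5 phenotypes were 0 under every setting run, and the mean pairwise correlations kept their values within the spread. Dim probe sets are limited by signal over background, which RMA values do not show.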
